A study of Drosophila melanogaster with 2 samples.

Results

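Divergent protein-coding promoters are places where protein-coding genes on opposite strands start close to each other. They carried 983 of the 7630 peaks kept from 2 replicates of a CG10979 ChIP-seq experiment in Drosophila embryos (12.9%, 95% Wilson interval 12.2 to 13.7%). A peak was counted here when its summit lay within 500 bp of an annotated plus-strand start and an annotated minus-strand start of different protein-coding genes, a choice made from gene annotation and not from peak height. Both samples were whole embryos of pooled sex, aged 0 to 14 h, of a transgenic line with CG10979 fused at its C-terminal end to eGFP, and the tagged protein was precipitated with an antibody against GFP. The promoter that drives the fusion and the state of the native gene are not stated in the labels. The samples are biological replicates 2 and 3 of 1 group, and no other genotype, stage or treatment was compared. The lists hold the 7630 peaks kept by irreproducible discovery rate analysis (IDR, which retains peaks that rank alike in the replicates), 30000 pooled peaks, and 30000 peaks of each replicate. A whole embryo mixes many tissues over a long span of development, so a peak does not show in which cells the protein was bound. The values describe peaks of 2 replicates, and with 1 group no test between conditions is possible, so that differences are given with their intervals and their values in each replicate, and none is called particular to divergent promoters. Depth is unknown, since the lists give no counts, and an interval reflects nothing but how many peaks or genes it counts.

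At a divergent promoter the transcripts run away from each other, out of a shared stretch of DNA that is often free of nucleosomes. In the compact fly genome many such pairs join genes that most cells use, such as genes for ribosomal proteins, mitochondrial enzymes and the machinery of transcription. Known fly promoter words include the DNA replication-related element, bound by DREF and by the insulator protein BEAF-32, motif 1 and motif 6 of housekeeping promoters, and the TATA box, which is better known from regulated genes.

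The windows that follow are examples of divergent promoter summits. Each was chosen for a word that it holds, so the windows do not show how common a word or a base composition is. Each is the summit base with 50 bp to either side, on the plus strand of dm6, from the RefSeq Release 6 genome, and capitals mark every match to the word named, on either strand. The words were searched as ATATTA (an A/T-rich word known from earlier results on these same peaks), TATCGATA (DREF), TAATTA (the core bound by many homeodomain proteins), TATAAA (the TATA box), GTATATTT or GTATTTTT (motif 6) and AAAAAAAA (a run of A). TATCGATA holds CGATA, the word searched for BEAF-32, and is therefore counted under both. The first name of each pair is the plus-strand gene.
Ssl1/Chro, AT word, chr3L:22878857-22878957: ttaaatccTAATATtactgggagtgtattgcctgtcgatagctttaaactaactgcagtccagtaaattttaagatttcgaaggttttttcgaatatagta
CG4820/RpS25, DREF, chr3R:11216325-11216425: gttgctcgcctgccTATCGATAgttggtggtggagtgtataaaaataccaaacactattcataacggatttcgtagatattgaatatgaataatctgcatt
Mtl/CG5611, homeobox core, chr3R:27636115-27636215: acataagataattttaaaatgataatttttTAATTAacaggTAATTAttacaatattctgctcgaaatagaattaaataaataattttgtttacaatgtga
pkaap/crp, TATA box, chr2L:16287824-16287924: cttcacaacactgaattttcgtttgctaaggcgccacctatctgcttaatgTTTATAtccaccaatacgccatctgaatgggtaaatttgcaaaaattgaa
CG17294/CG13390, motif 6, chr2L:8376831-8376931: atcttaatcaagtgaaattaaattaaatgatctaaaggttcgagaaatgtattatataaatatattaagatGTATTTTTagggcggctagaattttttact
CHMP2B/Tcs5, A run, chr3L:5139451-5139551: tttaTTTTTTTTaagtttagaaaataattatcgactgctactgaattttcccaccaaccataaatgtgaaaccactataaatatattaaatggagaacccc

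Each of these windows belongs to the highest peak that holds its word among the divergent promoter peaks outside one chromosome arm that is not shown. The Mtl/CG5611 window has a GC content of 16.8% and 2 matches to TAATTA. The CG4820/RpS25 window, at 36.6% GC, holds the full DREF word in a peak of 899 signal units, against 6284 units for Ssl1/Chro. The peak caller's signal value has no fixed unit, and values of the pooled and replicate lists are on different scales.

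Peaks at divergent promoters entered the IDR list more often than pooled peaks at other positions. Since that list holds the strongest pooled peaks, this is a difference in signal and does not measure how alike the replicates are. Of the 2367 pooled peaks at divergent promoters, 983 were IDR peaks, a share of 41.5% (interval 39.6 to 43.5%), against 25.4% of all pooled peaks. The share was 25.6% (24.6 to 26.6%) at protein-coding starts on one strand only, called one-strand peaks from here on. It was 24.6% at noncoding starts only and 23.5% away from annotated starts. The replicates gave the same order for divergent and one-strand peaks: 41.8% of the divergent peaks of replicate 2 and 43.9% of those of replicate 3 were among that replicate's own 7630 strongest peaks, against 24.8% and 27.5% of the one-strand peaks. In these strongest lists, replicate 2 had 973 peaks at divergent promoters and replicate 3 had 1027, or 13.1% ± 0.50 of the list (SD, n = 2).

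**Figure D1:**
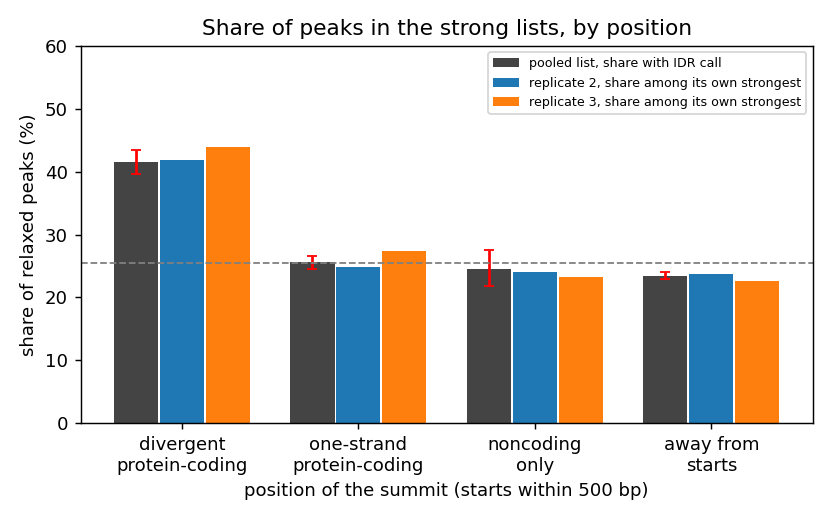
Share (%) of relaxed peaks that are IDR peaks (dark bars, pooled list; red bars are 95% Wilson intervals) or among the 7630 strongest of replicate 2 (blue) or replicate 3 (orange), by the position of the summit. The dashed line is the share over all pooled peaks, 25.4%, and all 3 bars at divergent promoters lie between 41.5% and 43.9%.

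Seen from the genes, those with an opposite-strand neighbour of any arrangement carried peaks more often. Among the 5141 protein-coding genes with an opposite-strand coding start within 1000 bp, 2192 had an IDR summit in the 500 bp around any of their starts (42.6%, interval 41.3 to 44.0%), against 1328 of the 8804 genes without such a neighbour (15.1%, 14.4 to 15.8%) and 25.2% of all 13945. In the replicates' strongest lists the shares averaged 42.9% ± 2.34 for genes with such a neighbour and 15.1% ± 0.739 for the rest (SD, n = 2). A gene with a neighbour can be reached through a start of the neighbour, and how far this adds to the difference was not tested. The 983 peaks lay at 914 of 2448 divergent loci, which are start pairs joined together when they share a gene (37.3%). They covered 964 intervals, since 38 of them are summits that share 19 intervals. Their nearest start pairs named 1833 genes, and 1889 genes had a start in reach.

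Of the 983 peaks, 961 (97.8%) had a nearest start pair that pointed away from each other, as the name divergent promoter implies. In the other 22 the starts overlapped or faced each other. The highest of these were Cyt-c-d/CG31808, where the gap is -234 bp because the plus-strand start lies below the minus-strand start, CG4658/CG5846 and Adck1/CG4741. Cyt-c-d, a cytochrome c of the male germ line, and CG31808 shared a peak of 2731 units, with 1570 in replicate 2 and 1170 in replicate 3. A noncoding start lay in the same window at 18 of the 983 peaks, and 50 peaks had 3 or more coding genes in reach.

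The summits mostly sat in the gap between the starts. At 790 of the 961 head-to-head peaks (82.2%) the summit lay between the nearest starts, with 83.8% in replicate 2 and 80.6% in replicate 3, against 52.5% of the pooled divergent peaks without an IDR call. The median gap between starts was 279 bp (interquartile range 200 to 377 bp), and the summit lay a median of 99 bp from the nearer start and 184 bp from the farther one. Of the 790 summits in a gap, 439 (55.6%) lay between 33.3% and 66.7% of the way across, against 32.3% of the summits in a gap among peaks without an IDR call. The summits of the peaks without an IDR call were shifted toward higher coordinates, by a median of 73.0 bp from the midpoint, and the part of this shift in both of these differences was not tested.

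Short gaps behaved differently from longer ones. With at most 100 bp between the starts, 29.6% of the IDR summits lay in the gap, and with over 100 and up to 200 bp 60.7% did. The share was 93.7% over 200 and up to 300 bp and 93.3% over 300 and up to 400 bp. A short gap is a small target for a summit, so part of this order follows from its length.

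**Figure D2:**
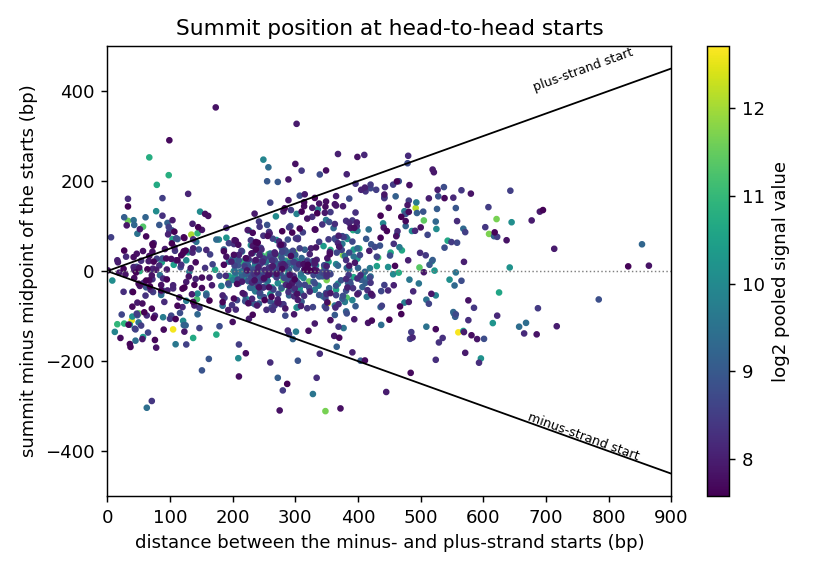
Each point is 1 of the 961 head-to-head IDR peaks; the x axis is the distance between the nearest minus- and plus-strand starts (bp), the y axis is the summit minus the midpoint of the starts (bp), and colour is the log2 pooled signal value. Black lines mark the starts, and 790 points lie between them.

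Gene pairs over 200 and up to 400 bp apart had the highest shares with an IDR peak. Among the 2720 start pairs of genes on opposite strands within reach of each other, 989 (36.4%) had an IDR summit within 500 bp of both starts, and the replicates averaged 36.5% ± 1.04 (SD, n = 2). The share was 56.3% (52.1 to 60.5%) of the 529 head-to-head pairs with a gap over 200 and up to 300 bp and 51.5% (46.6 to 56.4%) of the 394 pairs with a gap over 300 and up to 400 bp. Closer pairs had less, with 39.1% (34.6 to 43.9%) up to 100 bp and 36.7% (31.9 to 41.9%) over 100 and up to 200 bp. Wider pairs also had less, with 28.6% over 400 and up to 600 bp and 5.24% beyond that, up to 1000 bp.

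The fall toward wide gaps is partly set by the rule, since the stretch within 500 bp of both starts shrinks as the gap widens. When a summit within 500 bp of either start was counted, the shares by rising gap were 44.6%, 43.5%, 60.1%, 57.9%, 41.2% and 40.0%. The pairs over 200 and up to 400 bp apart had the highest shares in this count too. For pooled peaks of any strength the order was another, with 88.1% of the pairs up to 100 bp apart, 83.7% over 200 and up to 300 bp and 81.7% over 300 and up to 400 bp. Up to 100 bp the replicates were far apart, at 35.8% in replicate 2 and 45.8% in replicate 3. Over 200 and up to 300 bp they were 56.0% and 55.6%.

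**Figure D3:**
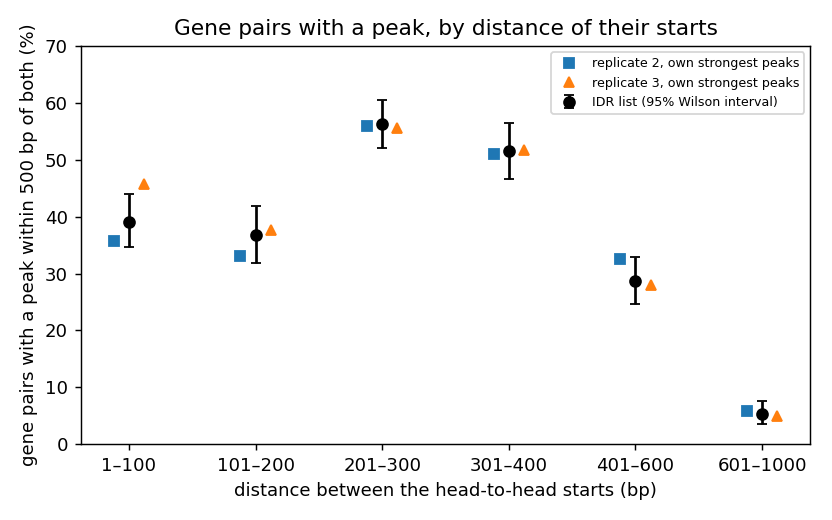
Share (%) of head-to-head gene pairs with a peak summit within 500 bp of both starts, by the distance between the starts (bp). Black points are the IDR list with 95% Wilson intervals, blue squares replicate 2 and orange triangles replicate 3, each by its own strongest peaks; the IDR share is highest, at 56.3%, over 200 and up to 300 bp.

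Pooled signal at the 983 peaks ran from 191 to 6696 units, with quartiles of 251, 382 and 688. The median was 382 units at divergent promoters and 341 at one-strand promoters, a difference of 0.17 on the log2 scale, with 0.13 in replicate 2 and 0.15 in replicate 3. The order turned in the 3815 IDR peaks with the highest signal, where the difference was -0.29. The upper quartile was 688 units at divergent promoters and 728 at one-strand promoters, and the maximum was 6696 and 9874 units. At divergent promoters were 5 of the 20 strongest IDR peaks and 15 of the 100 strongest, beside 12.9% of the whole list.

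The 12 highest divergent promoter peaks joined genes of many functions. The highest, between mRpS10 (a protein of the small mitochondrial ribosomal subunit) and Art3 (an arginine methyltransferase), at chr3R:15229278-15229819, had 3747 units in replicate 2 and 2968 in replicate 3. Its summit at 15229530 lay in the gap of 257 bp, 135 bp upstream of mRpS10. The peak between pkaap and crp, which encodes the bHLH transcription factor Cropped, had 2603 units in replicate 2 and 3890 in replicate 3. It was one of the few high peaks with more signal in replicate 3.

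Ssl1, a subunit of the general transcription factor TFIIH, and Chro, the chromosomal protein Chromator, shared a peak of 3547 units in replicate 2 and 2746 in replicate 3. Its summit lay outside the gap, on the Chro side of it. CG7632/CG11309, at 6006 pooled units, also had its summit outside its gap, which is 39 bp wide. Mtl, a small GTPase, and CG5611 shared a peak of 3118 units in replicate 2 and 2382 in replicate 3, in a gap of 352 bp.

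The others of the 12 fell between 3582 and 4693 pooled units. CHMP2B, a subunit of the ESCRT-III membrane-cutting complex, and Tcs5, of a complex that modifies tRNA, had 4693 units. CenG1A, a GTPase-activating protein of the Arf family, and mRpS23, of the mitochondrial ribosome, had 4553 units with the summit 386 bp from the mRpS23 start. CG17294/CG13390 had 4353.8 units and CG9147/Fbw5, the second an F-box protein gene, had 4204.

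Axn, which encodes the Wingless pathway scaffold Axin, and RpS28a, for a cytoplasmic ribosomal protein, shared a peak of 3719 units. At 1163 bp this peak was the widest of the 983, and the GC content at its summit was 52.5%. Pal1/Pdrg1 had 3685 units. PIG-F, of glycosylphosphatidylinositol anchor synthesis, and Lon, a mitochondrial protease, had 3582.

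In 69 of the 914 loci there were 2 divergent promoter peaks, and none had more. A locus can hold separate start pairs of the same genes, so 2 peaks in a locus need not lie at 1 promoter. At Dic1/Elp6 on 3R a summit of 3292 units and a summit of 365 units lay at 13364743 and 13367297. Elp6 is a subunit of the Elongator complex, and Dic1 a mitochondrial dicarboxylate carrier. At Alp12/Pax, with Pax for the focal adhesion protein paxillin, the summits had 2666 and 366 units. At CG3552, which pairs with CG3437 and with phol, a DNA-binding Polycomb group gene, they had 3158 and 204 units. In each of these 3 loci 1 peak was much the higher.

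The signal in the replicates moved together. A replicate summit lay within 100 bp of 940 of the 983 summits in both replicates, of 965 in replicate 2 and of 957 in replicate 3. Across the 940 peaks Spearman's rank correlation between replicate signals was 0.88, as a description over peaks from the same pair of libraries. These peaks were selected by the IDR list and by a match in both replicates, and how far this selection sets the value was not tested. The median log2 ratio of replicate 2 to replicate 3 was 0.24 with an SD of 0.47 over peaks, and 687 peaks had more signal in replicate 2 and 253 in replicate 3. One-strand peaks had a median ratio of 0.24 and peaks away from starts 0.29.

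Among the fifth of the peaks with the highest signal, the lowest ratios of replicate 2 to replicate 3 were -0.58 at pkaap/crp, -0.56 at Axn/RpS28a, -0.51 at Clp/PGAP2 and -0.20 at sgll/CG2993. Clp encodes a cleavage and polyadenylation factor subunit. The highest were 1.41 at CG12299/Vha16-5, 1.33 at CG5916/Mic26-27, 1.26 at CG3253/CG4049 and 1.23 at Tmem18/DUBAI. At Tmem18/DUBAI replicate 2 had 2029 units and replicate 3 868.

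Peaks at the edge of the 500 bp limit were of ordinary height. Just inside it, the CG10802/CG10804 peak had 370 units with its farther start at 500 bp, the Men-b/CG6051 peak 306 units at 500 bp and the RpS19a/Rok peak 293 units at 496 bp. Just outside, the Nepl20/Nepl19 peak had 821 units with its farther start at 501 bp, the CG9953/Mis12 peak 223 units at 502 bp and the CG44000/CG31650 peak 405 units at 505 bp.

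Divergent promoter summits lay in A/T-rich DNA. Within 50 bp to either side of the summit the DNA had a mean GC content of 31.3% ± 10.05 (SD over 983 peaks), against 46.9% in windows of the same size 300 bp to either side, a difference of -15.6 percentage points. The difference was -15.7 points in replicate 2 and -14.1 in replicate 3. At one-strand peaks the summits had 34.9% and the flanks 42.7%, and away from starts 30.7% and 45.0%. Divergent promoter flanks were thus the richest in GC of these 3 classes, and their summits were close to those away from starts. Low GC was also found at divergent promoters without an IDR peak. Windows at the midpoints of head-to-head gene pairs had a mean of 34.8% at the 1664 pairs without an IDR peak. At the 951 pairs with one it was 31.0%.

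The dip was deeper in strong peaks. Pooled divergent peaks without an IDR call had 40.1% GC at the summit and 44.6% in the flanks. Their lowest bin, at 37.8%, lay 90 bp below the summit coordinate, so the difference at the summit depends on where the summit was placed. With the 983 peaks split by signal into 4 groups of equal size, GC was 26.8% in the highest group, 28.2% and 34.2% in the next groups and 35.9% in the lowest. Spearman's rank correlation between signal and summit GC was -0.38 over the 983 peaks, and -0.43 over one-strand peaks. Whether the base composition affects how well fragments are amplified or sequenced was not tested here.

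**Figure D4:**
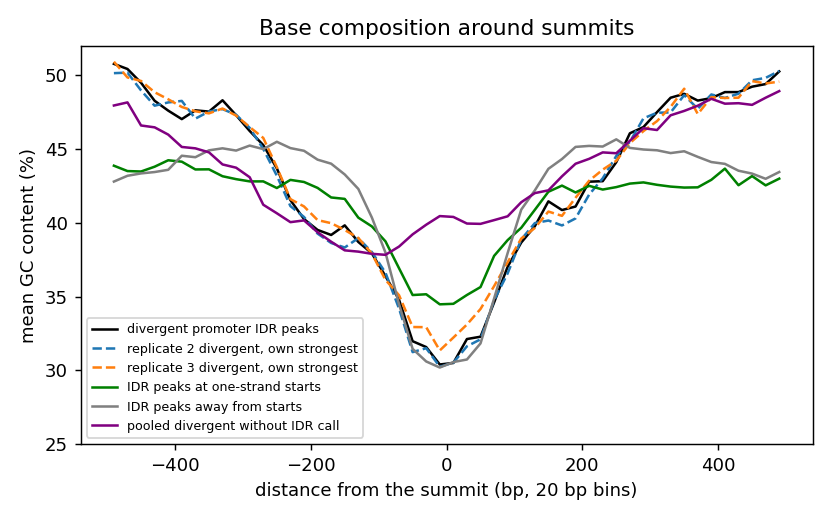
Mean GC content (%) in 20 bp bins against the distance from the summit (bp). Divergent promoter IDR peaks (black) and their counterparts in replicate 2 and replicate 3 (dashed) dip to a mean of 31.3% within 50 bp of the IDR summits, from flanks at 46.9%; divergent peaks without an IDR call (purple) average 40.1% there.

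The TATA box and ATATTA were, of the 25 searched, the words found at the largest numbers of summits, but about as often at IDR summits away from starts. The TATA box was in 28.3% of the 983 summit windows and 8.09% of their flanks, in 22.3% of one-strand summits and in 27.2% of IDR summits away from starts. It was in 16.3% of windows of the same size centred 100 bp upstream of all 19253 protein-coding starts that could be read. ATATTA was in 26.1% of the windows, 5.44% of the flanks, 20.4% of one-strand summits, 25.2% of summits away from starts and 13.0% of all start windows. TAATTA was in 16.0%, against 3.92% in the flanks, 8.39% of one-strand summits, 11.9% of summits away from starts and 8.23% of all start windows. The A run was in 7.22%, against 2.49% in the flanks, 6.78% of one-strand summits, 7.83% of summits away from starts and 6.27% of all start windows. The initiator words (TCAGTT or TCAGTC or TCATTT or TCATTC) were in 23.2%, against 16.5% of the flanks, 23.6% of one-strand summits, 28.7% of summits away from starts and 24.2% of all start windows. At least 1 of the TATA box, the AT word and the homeobox core was in 508 of the 983 windows, or 51.7%. Each of these 3 is made of A and T only, and the low GC content of the windows was not corrected for. At midpoints of head-to-head pairs without an IDR peak, the TATA box was in 20.4%, ATATTA in 19.7% and TAATTA in 9.31%. At midpoints of pairs with one the shares were 27.1%, 25.4% and 15.0%.

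Words of housekeeping promoters were also found. TATCGATA was in 55 windows (5.60%, interval 4.32 to 7.21%), against 1.27% of the flanks, 1.98% of one-strand summits, 0.175% of summits away from starts and 2.27% of all start windows, with 4.42% in replicate 2 and 5.55% in replicate 3. Divergent pooled peaks without an IDR call held TATCGATA about as often, at 5.997%, so the word does not set the IDR peaks apart from weaker divergent peaks. CGATA, the BEAF-32 word, was in 22.9%, against 12.8% of flanks, 17.1% of one-strand summits, 9.32% of summits away from starts and 19.5% of all start windows. GTATATTT or GTATTTTT was in 5.90%, against 1.88% of flanks, 4.01% of one-strand summits, 4.17% of summits away from starts and 4.18% of all start windows. GGTCACAC, the word of motif 1 and its factor M1BP, was in 1.73%, near the 1.66% of one-strand summits and 1.24% of all start windows. GAGAGA, bound by GAGA factor at many regulated promoters, was in 1.22%, against 2.90% of flanks, 3.79% of one-strand summits and 7.37% of all start windows. In divergent pooled peaks without an IDR call, CGATA was in 29.9%, GGTCACAC in 6.36% and GAGAGA in 2.38%, all above their shares at the IDR summits. Motif 6 was in 4.12% of these weaker peaks, below its share at the IDR summits. At midpoints of head-to-head pairs, TATCGATA and CGATA were about as frequent without an IDR peak as with one. TATCGATA was in 4.63% without and 5.36% with a peak, and CGATA in 23.1% and 24.1%. Motif 6 was in 5.17% and 7.36%.

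Among the IDR peaks the DREF and motif 1 words went with low peaks, and the TATA box and TAATTA with high ones. TATCGATA was in 2.03% of the windows in the group with the highest signal, 3.25% and 8.13% in the next groups and 8.98% in the lowest. The TATA box was in 38.6%, 29.7%, 22.4% and 22.4% in the same order. Motif 6 had no such order, with 8.13%, 2.85%, 6.10% and 6.53%. Among pooled divergent peaks that hold GGTCACAC, 16.2% were IDR peaks, against 42.7% of those without it. With TAATTA the share was 62.5%, against 39.0% without it, and with TATAAA it was 58.5%, against 37.3%. With motif 6 it was 50.4%, against 41.1%, on the side of the A/T-rich words. For TATCGATA the shares were close, at 39.9% with the word and 41.6% without it. Signal and GC content move together in these peaks, so words and base composition cannot be told apart here. In all, 12 of the 25 words or word groups searched were more frequent at the summits than in either flank, in both replicates.

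**Figure D5:**
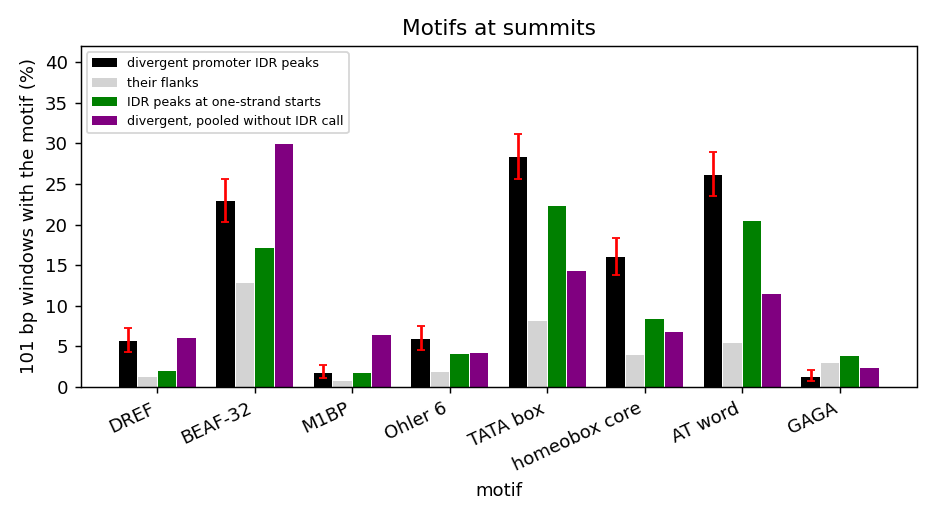
Share (%) of windows of 50 bp to either side that hold each word, on either strand. Black bars are divergent promoter IDR summits with 95% Wilson intervals in red, grey their flanks, green one-strand IDR summits and purple divergent pooled peaks without an IDR call; the TATA box stands at 28.3% in black and 14.2% in purple, and BEAF-32 at 22.9% and 29.9%.

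Many lists of genes of basic cell functions had divergent promoter peaks at a larger share of their genes than all genes did. Over all 13945 protein-coding genes, 13.5% had a divergent promoter peak within 500 bp of a start, and of the 5141 with an opposite-strand neighbour within 1000 bp 36.7% had one. Of 28 gene lists, which were chosen with earlier results of these peaks known, 23 had a share above 13.5%, and 21 had a share above 36.7% of their members with a neighbour. The median list had 29.2% of its genes and 48.5% of its members with a neighbour. No list was tested against other genes.

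Lists of protein synthesis genes differed in the share of all their genes with a peak, and several were alike among genes with a neighbour. A divergent promoter peak was found at 35 of 73 mitochondrial ribosomal protein genes (58 have a neighbour) and 33 of 92 cytoplasmic ones (55 have a neighbour), or 47.9% and 35.9% beside 13.5% of all genes. Besides mRpS10 and mRpS23, the strongest mitochondrial case was mRpL23, with 1720 units in replicate 2 and 1321 in replicate 3 at the start it shares with CG9004. Among the cytoplasmic genes RpS28a led at 3719 pooled units, and RpL34b had 1206. Among tRNA synthetases 14 of 33 genes had a peak, led by IleRS at 1594 units, which pairs with Hem. These are 60.9% of the 23 with a neighbour (40.8 to 77.8%). Of 51 translation factors 8 had a peak (15.7%), led by the cap-binding repressor eIF4EHP at 3541 units. These are 8 of the 25 with a neighbour (32.0%), and the interval, 17.2 to 51.6%, spans the 36.7% of all such genes. A peak of 614 units lay between eIF1 and RpL28. Of 14 genes of nucleolar function and ribosome biogenesis 8 had a peak, led by Ns2 at 2593 units. These are 8 of the 11 with a neighbour (72.7%, 43.4 to 90.3%).

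Energy metabolism and protein turnover genes also had such peaks. Peaks lay at 9 of 40 genes of respiratory complex I, 9 of 31 of ATP synthase and cytochrome oxidase, 3 of 15 of mitochondrial import and 11 of 48 proteasome subunits. Of their genes with a neighbour these are 9 of 22, 9 of 18, 3 of 5 and 11 of 26. ND-ASHI of complex I, paired with the fumarase gene Fum1, had 1244 units. Rpn5 of the proteasome lid, paired with the histone acetyltransferase gene Hat1, had 782. In ubiquitin conjugation 7 of 29 genes had a peak, led by Uba3 at 1318 units, and in autophagy 8 of 20, led by Atg4b at 971. In these lists the peaks lay at 7 of 14 and 8 of 16 genes with a neighbour. For each list in this paragraph, the Wilson interval of the share with a neighbour spans the 36.7% of all such genes.

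Among genes of transcription and RNA, peaks lay at 11 of 25 Mediator genes, 5 of 15 TAF genes, 10 of 30 RNA polymerase genes, 12 of 34 splicing factors and 6 of 21 nuclear pore genes. Of their genes with a neighbour these are 57.9%, 41.7%, 52.6%, 40.0% and 31.6%, beside 36.7% of all such genes. MED30, of the Mediator complex that links activators to polymerase, shared a peak of 987 units with Rev1, a DNA polymerase of lesion bypass. Taf2, of TFIID, had 1666 units, and the polymerase subunit gene Polr2B, paired with 140up, had 1329.

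Chromatin genes included some of the highest peaks. Peaks lay at 7 of 16 genes of insulator and architectural proteins and 9 of 29 of the Polycomb and trithorax groups. These shares are 43.8% and 31.0%, beside 13.5% of all genes. Of the genes with a neighbour they are 7 of 10 (interval 39.7 to 89.2%) and 9 of 17 (31.0 to 73.8%). The second interval spans the 36.7% of all genes with a neighbour. Chro, named above, led the first list, followed by the insulator protein gene Cp190, with 1540 units in replicate 2 and 1142 in replicate 3. In the second list brm, the ATPase of the fly SWI/SNF complex, had 1494 units in replicate 2 and 1059 in replicate 3. E(z), the histone methyltransferase of Polycomb repressive complex 2, had 1080 and 910 units in the same replicates. Replicate 2 was the higher at all 3 genes, as it was at 687 of the 940 divergent promoter peaks matched in both replicates.

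In the cell division lists, peaks lay at 5 of 17 DNA replication genes, 5 of 22 cell cycle genes and 8 of 23 DNA repair genes. Of their genes with a neighbour these are 5 of 11, 5 of 11 and 8 of 16, and the Wilson intervals of all 3 shares span the 36.7% of all genes with a neighbour. Mcm2, of the replicative helicase, pairs with RPA1 at a peak of 535 units. Cdk1, the mitotic kinase, pairs with mRpS7 at a peak of 595 units, with 298 in replicate 2 and 308 in replicate 3. Among trafficking genes the Vps and exocyst list had peaks at 20 of 48, led by Vps33B at 2102 units, and Rab GTPases at 8 of 31, led by Rab3GAP1, which encodes a regulator of Rab proteins, at 709. Of the genes with a neighbour in these lists, 20 of 32 (62.5%, interval 45.3 to 77.1%) and 8 of 17 (47.1%, 26.2 to 69.0%) had one.

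Genes of restricted expression were nearly without such peaks. No gene had one among 179 chemosensory receptors, 117 cuticle protein genes and 41 early patterning genes. Few of these genes have an opposite-strand neighbour: 27, 13 and 1 in the same order. The upper Wilson bound for 0 of 27 is 12.5%, for 0 of 13 it is 22.8%, and for 0 of 1 it is 79.3%. Of 83 cytochrome P450 genes 1 had a peak, Cyp9f2 at 474 units, which is 1 of the 12 with a neighbour (interval 1.49 to 35.4%). The heat shock list is not counted here among genes of restricted expression. In it 2 of 24 genes had a peak, Hsc70-5 and Hsc70-4. These are 2 of the 7 with a neighbour (28.6%, interval 8.22 to 64.1%), beside 36.7% of all such genes. Of the 41 early patterning genes 10 had an IDR summit within 500 bp of a start, all at one-strand positions, which is 24.4% beside 25.2% of all genes.

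The chromosome arms differed in how many of their gene pairs had a peak. On 3R 306 of 699 pairs did (43.8%, interval 40.1 to 47.5%), and the replicates averaged 43.3% ± 1.11 (SD, n = 2). On X the share was 28.0% of 410 pairs (23.9 to 32.6%), with 27.8% ± 0.345 in the replicates. The shares were 36.2% on 2L, 32.1% on 2R and 38.4% on 3L. On chromosome 4 none of 11 pairs had one, with an upper bound of 25.9%, though 1 of the 11 pairs (9.09%) had one in each replicate's strongest list. X held 18.8% of all IDR peaks and 11.3% of those at divergent promoters. Pooled peaks of any strength lay at 69.8% of the X pairs, against 72.4% on 3R and 62.5% on 2L. Embryos of both sexes were pooled, so X chromosomes are fewer than autosomes in the sample, and how this bears on the X value was not tested.

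Weak divergent peaks were placed off centre. In the 961 head-to-head IDR peaks the summit lay a median of 3.5 bp toward the higher coordinate from the midpoint of the starts, with 504 on the plus-strand gene's side and 452 on the other. In pooled peaks without an IDR call the median was 73.0 bp, with 877 and 452 peaks. Replicate peaks past each replicate's strongest had medians of 73.0 bp in replicate 2 and 68.8 bp in replicate 3. One-strand peaks without an IDR call lay a median of 34.0 bp downstream of plus-strand starts and 21.0 bp upstream of minus-strand starts, which is also a shift toward higher coordinates, while IDR peaks lay 141 and 140 bp upstream. Peak width also differed: 436 bp was the width of 93.8% of the divergent peaks without an IDR call and of 28.0% of those with one. The shift did not follow this width. In head-to-head peaks without an IDR call its median was 68.0 bp at 436 bp and 136.75 bp at other widths. In head-to-head IDR peaks it was 5.0 bp and 3.0 bp. How the caller places summits of such weak peaks was not tested.

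CG10979 itself starts at a divergent promoter. The gene (FBgn0037379, chr3R:5794705-5799994, plus strand) lies 388 bp from the start of PSMG1, whose human namesake encodes a proteasome assembly chaperone. It had no IDR peak. The highest pooled peak there, with its summit at 5794411 between the starts, had 141 units, with 73.2 in replicate 2 and 75.3 in replicate 3, below the lowest of the 983 peaks at 191.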

How the data were processed

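Per the labels, whole embryos of pooled sex with CG10979-eGFP, aged 0 to 14 h, gave 2 biological replicates (2 and 3, each technical replicate 1), and chromatin was sonicated to 200 to 800 bp. The authors deposited narrowPeak lists on dm6 and, per the text deposited with them, called each replicate and the pooled alignments against the same control. No source used here names the aligner, the caller or a version of either. The signal value, a score per peak that the authors deposited, was compared within a list, except between the 2 replicate lists. There the values were used without scaling, so a ratio also holds any offset between the lists. The −log10 values that the authors deposited are capped and were not used. The other deposited column used is the summit offset. Control reads and coverage were not analysed here.

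Gene starts were those of Ensembl release 115 without transposable elements, and sequence was read from the RefSeq Release 6 genome. A peak was assigned to its nearest plus- and minus-strand coding starts within 500 bp. Loci joined start pairs within 1000 bp that share a gene. Replicate values use each replicate's own strongest peaks, as many as the IDR list holds. Replicate summits were matched within 100 bp. Motifs were searched on both strands. All peaks fell on the 6 chromosome arms. Scripts ran in Python 3.11.15 with pandas 2.3.3, numpy 2.4.6 and scipy 1.17.1, figures in matplotlib 3.10.9, and the assignment of peaks was tested on simulated data.

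The peaks described, the gene lists, the words and the alternatives were chosen with earlier results of these data known. Named are the tagged gene, the 12 highest peaks, up to 3 genes per list by peak height, the 4 highest and 4 lowest replicate ratios among the fifth of the peaks with the highest signal, the 3 peaks on either side of the 500 bp limit, and the 3 highest loci with most peaks. A gene named by these choices is not reported here. Sequences are those of 6 words, limited to that number after the values were seen, and the 3 overlapping or facing pairs named were also chosen then. Of the gene list symbols, 11 were not found in the annotation and were left out. Alternatives changed the start window, the start annotation, the IDR list, the summit window, the replicate and the matching distance. Counting each interval once, and the strongest peak of each locus only, were added after the data were seen.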

Additional observations from a re-analysis of the deposited data

How the results depend on the processing

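With a start window of 200 bp, 543 peaks remained at divergent promoters, or 7.12% of the IDR list. Of the pooled peaks in that window 55.4% were IDR peaks, 32.9% of loci had a peak, 78.8% of head-to-head summits lay between the starts, the log2 signal difference from one-strand peaks was 0.41, and the GC difference from flanks was -18.5 points. With 1000 bp the values were 16.1%, 33.7%, 40.4%, 77.5%, 0.073 and -13.3 points. With only the 5′ end of each gene, the share of IDR peaks was 12.0%, 95.8% of pairs were head-to-head, 77.8% of summits lay between starts and the signal difference was 0.25. Of the 3815 IDR peaks with the highest signal, 503 were at divergent promoters. There the share of pooled peaks was 21.3%, loci 20.1%, summits between starts 85.4%, the GC difference -19.9 points, and the signal difference reversed to -0.29. The upper quartile of one-strand peaks lies above that of divergent ones, and the cause was not tested. With the strongest peak of each locus only, the values were 12.0% of IDR peaks and a signal difference of 0.24. With 100 bp to either side of the summit the GC difference was -12.7 points. With either replicate left out, the share of the strongest peaks ranged from 12.8% to 13.5%, the share of pooled peaks from 41.8% to 43.9%, the signal difference from 0.13 to 0.15 and the GC difference from -15.7 to -14.1 points. The share of windows with the DREF word ranged from 2.75% to 10.6% over all these alternatives, and that with the TATA box from 15.3% to 45.6%. The median log2 ratio of the replicates ranged from 0.24 to 0.31 over the alternatives run for it. No paired analysis was possible because the samples form 1 group. The lists hold no counts, so what depth would allow could not be judged, and a round list length of 30000 may leave out weak peaks.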
